A study of Mus musculus with 72 samples.

Results

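The levels of 8 liver-secreted and stress-induced factors were followed across the transcriptomes of liver, epididymal white adipose tissue (eWAT) and pituitary. They are Fgf21, Gdf15, Angptl4, Angptl8, Fetub, Ahsg, Inhbe and Lect2, the 8 genes whose Ensembl identifiers carry these symbols, out of 55416 genes counted. The libraries came from male offspring of FVB.129P2 mice. FED dams ate freely, and CR20 dams had their food reduced by 20% from embryonic day 15 until weaning on postnatal day 21. From 8 weeks of age the offspring ate a control diet with 10% fat (CTRL) or a high fat diet with 45% fat (HFD), which gave the groups FED-CTRL, FED-HFD, CR20-CTRL and CR20-HFD. The labels leave the time on the diet as 10 or 16 weeks, and the study's text places the sequenced tissues at 10 weeks. Each group held 6 mice, each mouse gave 1 library of each of the 3 tissues, and the groups held different mice. The labels do not say which mice were littermates, so the p-values measure the spread between mice that may share a dam.

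Hepatokines are proteins that the liver secretes into the blood and that act on other organs. Ahsg encodes fetuin-A, a major plasma glycoprotein that binds calcium phosphate and the insulin receptor, and Fetub encodes fetuin-B, an inhibitor of the egg protease ovastacin. Lect2 is a chemotactic protein that binds the receptors Met and Tie1, and Inhbe encodes the subunit of activin E, which signals to adipocytes through Acvr1c. Angptl4 and Angptl8 restrain lipoprotein lipase, the enzyme that releases fatty acids from circulating triglyceride, Angptl4 mostly in the fasted and Angptl8 in the fed state. Fgf21 and Gdf15 are hormones induced by fasting or cell stress, acting through Fgfr1 with Klb and through Gfral with Ret.

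On GRCm39, Ahsg (ENSMUSG00000022868, chr16:22710027-22718201) and Fetub (ENSMUSG00000022871, chr16:22736127-22758528) lie side by side on the plus strand. Lect2 (ENSMUSG00000021539) lies at chr13:56684477-56696569 on the minus strand and overlaps Fbxl21 on the other strand. Inhbe (ENSMUSG00000047492) lies at chr10:127184726-127190280 and Angptl4 (ENSMUSG00000002289) at chr17:33992724-34000804, both on the minus strand. Angptl8 (ENSMUSG00000047822, chr9:21746786-21748643) lies on the plus strand within Dock6, which is read from the other strand. Fgf21 (ENSMUSG00000030827, chr7:45263301-45266963, minus strand) overlaps Fut1 on the plus strand, and Gdf15 (ENSMUSG00000038508) lies at chr8:71082038-71091537 on the minus strand. The library kit marks strand, but the strand setting of the counting is not given in the sources used here, so reads of these pairs cannot be told apart from the counts alone. In the pituitary Dock6 had a median of 26.7 counts per 1000000 counts of the library (CPM) while Angptl8 had 0 counts in 15 of 24 libraries.

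The promoters of Fgf21 and Angptl8 are shown because, among the 7 members with a promoter entry, only these hold the letters TGATGNAAT, the C/EBP-ATF composite element through which the stress factor ATF4 is known to act on Fgf21. Each runs from 250 bases before to 50 bases after the gene start, from RefSeq on GRCm38.p6, and all members but Angptl4 had such an entry, with 9 promoters among them. Capitals mark matches to the motifs searched on both strands, which were this element, the cyclic AMP response element TGACGTCA, the E-box CACGTG, the HNF4 element CAAAGTCCA and the TATA box TATAAA. No 2 of these matches overlap in the sequences printed.
Fgf21 (chr7:45615441-45615740, minus strand): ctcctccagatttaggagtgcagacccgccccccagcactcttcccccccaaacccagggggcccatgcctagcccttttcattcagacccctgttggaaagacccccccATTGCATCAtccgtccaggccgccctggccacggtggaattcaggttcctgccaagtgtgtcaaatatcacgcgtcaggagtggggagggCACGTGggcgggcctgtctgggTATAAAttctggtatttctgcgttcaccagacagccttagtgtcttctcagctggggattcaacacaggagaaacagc
Angptl8 (chr9:21835260-21835559, plus strand): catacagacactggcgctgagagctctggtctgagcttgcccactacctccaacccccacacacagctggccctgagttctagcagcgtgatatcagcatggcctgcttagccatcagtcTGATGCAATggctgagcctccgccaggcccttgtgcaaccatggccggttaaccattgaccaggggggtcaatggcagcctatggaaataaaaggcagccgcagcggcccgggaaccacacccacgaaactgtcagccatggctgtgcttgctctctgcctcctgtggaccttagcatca
The composite element starts at position -140 from the gene start in Fgf21, as its reverse complement, and at -130 in Angptl8, and 0.965% of all 32851 promoters of this length hold it. An E-box at -50 and a TATA box at -28 follow in Fgf21. Gdf15 also held an E-box, at -83, and Fetub a TATA box, at -31, against 7.15% and 13.6% of all promoters. The cyclic AMP response element and the HNF4 element were in none of the 9 windows, against 1.79% and 0.475% of all promoters. These matches are letters in a window and no measured binding.

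Total counts ranged from 9842813 to 19928212 per library in liver, from 11589675 to 22364963 in eWAT and from 18299494 to 27601208 in the pituitary, so that 3 counts, the upper limit that a count of 0 allows, correspond to 0.109 to 0.305 CPM. Such limits cover counting error only. The tissue labels matched their markers. The summed level of 10 hepatocyte markers was 94210 to 133690 CPM in liver, that of 10 adipocyte markers 11209 to 41049 CPM in eWAT, and that of 10 pituitary hormone cell markers 258240 to 373110 CPM in the pituitary and at most 24.1 CPM elsewhere. In eWAT, 3 libraries stood apart on 7 of the 10 hepatocyte markers, those of FED-HFD mice 10 and 13 and of CR20-CTRL mouse 5. Without Cyp2e1 the marker sum was 859, 170 and 716 CPM in these and 11.4 to 47.6 CPM in the other 21. With Cyp2e1 the order differed, since that gene alone reached 955 CPM in CR20-HFD mouse 32 (sum 979 CPM) and 860 CPM in CR20-CTRL mouse 33 (sum 907 CPM), against 82.0 CPM in mouse 10. Mouse 5 also had the lowest adipocyte sum of its group, 15990 CPM against 28655 CPM in the next. FED-HFD mouse 23 stood apart in eWAT by its macrophage markers (10 genes), whose sum was 14645 CPM against 2630 to 5125 CPM in the other FED-HFD mice, and had the lowest adipocyte sum. The called results in eWAT are given with and without the 3 libraries rich in hepatocyte transcripts. Results without mouse 23 are given for some of them only.

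Compared per length, as reads per kilobase of transcript in units of CPM (RPKM), the members spanned more than 3 orders of magnitude in liver. Ahsg led with 5714 ± 770 RPKM (SD, n = 24 libraries), followed by Fetub with 379 ± 93.9, Lect2 with 196 ± 41.9 and Angptl8 with 157 ± 129. Angptl4 had 42.8 ± 23.9, Inhbe 13.9 ± 3.68, Fgf21 2.81 ± 1.501 and Gdf15 1.19 ± 1.04 RPKM. Ahsg lay above Fetub in range, and Inhbe (lowest 8.16 RPKM) above Fgf21 (highest 7.63 RPKM). All other neighbours in this order overlapped. In eWAT the order was led by Angptl4 with 219.7 ± 71.4 RPKM and Angptl8 with 40.0 ± 39.8 RPKM, and in the pituitary by Fetub with 39.3 ± 3.55 RPKM and Angptl4 with 6.56 ± 2.96 RPKM.

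Across tissues of the same mice, 7 of the 8 genes were highest in liver, and Angptl4 was highest in eWAT. Mean Angptl4 was 726.7 CPM in eWAT, 141.6 CPM in liver and 21.7 CPM in the pituitary. The liver minus eWAT difference in log2 CPM was -1.73 ± 0.97 (SD, 24 mice), and Angptl4 was higher in liver in 1 of 24 mice. Ahsg had 7953 CPM in liver against 5.61 CPM in eWAT and 0.107 CPM in the pituitary, and Lect2 172.6, 0.150 and 0.0639 CPM. Fetub was the other exception to a shared order. Its mean was 595.5 CPM in liver and 61.7 CPM in the pituitary but 0.748 CPM in eWAT, so that it was higher in the pituitary than in eWAT in all 24 mice (difference of eWAT minus pituitary -6.82 ± 1.05, log2 CPM). Inhbe was read almost only in liver, with 73.9 CPM there, 0 counts in 19 of 24 eWAT libraries and 1 count over all pituitary libraries.

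Of the 24 differences between pairs of tissues, 22 were past an adjusted p of 0.05 by a two-sided sign-flip permutation test over the 24 mice, 21 of them at the smallest p that the resamples can give, 1e-05. The exceptions were Inhbe (adjusted permutation p = 0.0648) and Lect2 (adjusted permutation p = 0.912) between eWAT and pituitary, where most libraries held 0 or few counts. Gdf15 was highest in liver, 2.10 ± 1.05 above eWAT on the log2 scale, and higher in eWAT than in the pituitary in 18 of 24 mice (difference 0.63 ± 0.97). Fgf21 was higher in liver than in eWAT in 24 of 24 mice (1.73 ± 0.85), with 0 counts in 15 of 24 pituitary libraries.

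**Figure D1:**
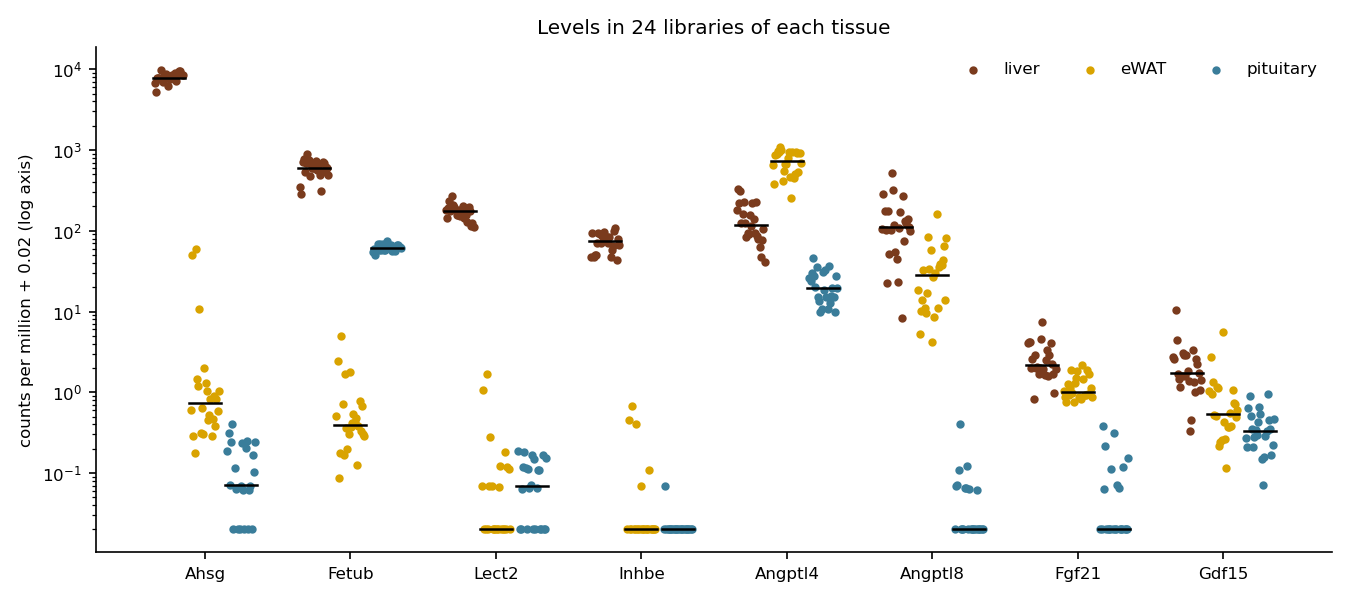
Levels of the 8 genes in CPM plus 0.02 on a log axis, with 1 point per library (24 per tissue) and a line at each median. Angptl4 is the gene with its highest points in eWAT, Fetub is the one that is high in liver and pituitary and near 1 CPM or below in most eWAT libraries, and the lowest row of points holds libraries with 0 counts.

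In liver, no member passed the test for diet or maternal food restriction. The test was edgeR's quasi-likelihood test with Benjamini-Hochberg adjustment over 13787 genes, and a gene was called at an adjusted p under 0.055 and a log2 fold change (log2FC) of at least 0.58 in either direction. For HFD vs CTRL, 0 of the 8 were called in offspring of FED dams (0.109% of all genes tested were), 0 of 8 in offspring of CR20 dams (0.522%) and 0 of 8 with the diet averaged over both (1.26%). At an unadjusted p under 0.05 there were 3, 2 and 3 members in these comparisons. By edgeR rank, at least 782, 1196 and 955 of the 13787 genes had such a p. The exact share of all genes at this cut is not given, here or below. Limma's voom with quality weights called 0, 1 and 0 of the members in these comparisons and DESeq2 0, 0 and 0. Maternal restriction was called for 0 of 8 members and for 0% of all genes on either diet, averaged over diets or as an interaction with diet, with 0 members at an unadjusted p under 0.05 in each and by edgeR, DESeq2 and limma's quality-weighted voom alike.

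Among the plasma proteins, Lect2 had higher medians on HFD. Its level was 129.6 to 182 CPM (median 156) in FED-CTRL and 167 to 269 CPM (median 189) in FED-HFD, and 110.3 to 179 CPM (median 135) in CR20-CTRL and 176 to 234 CPM (median 195) in CR20-HFD. The groups overlapped, with 4 of 6 FED-HFD mice above every FED-CTRL mouse and 5 of 6 CR20-HFD mice above every CR20-CTRL mouse in CPM, and 3 of 6 in each on the normalized log2 scale. The log2FC was 0.38 (standard error 0.16, edgeR adjusted p = 0.614, exact permutation p = 0.0303) in FED offspring and 0.45 (standard error 0.16, edgeR adjusted p = 0.313, exact permutation p = 0.0108) in CR20 offspring. Averaged over dams it was 0.41 (standard error 0.11) with an edgeR adjusted p of 0.0517, under the threshold on p, and the size was below the minimum of 0.58. Limma's voom with quality weights gave 0.61 in CR20 offspring (adjusted p = 0.0101), which would be called.

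Fetub in liver ranged from 313 to 669 CPM (median 562) in FED-CTRL, from 491 to 900.0 CPM (median 645) in FED-HFD, from 286 to 623 CPM (median 549) in CR20-CTRL and from 562 to 784 CPM (median 701) in CR20-HFD. The HFD medians lay above the CTRL medians and the groups overlapped. Its log2FC was 0.35 (standard error 0.20, edgeR adjusted p = 0.870) in FED and 0.42 (standard error 0.20, edgeR adjusted p = 0.515) in CR20 offspring. Across the 24 mice, after subtraction of group means, liver Fetub moved with the share of liver counts on the 37 mitochondrial genes, which ranged from 1.56% to 8.03% (Pearson r = 0.65, permutation p = 0.00166, adjusted 0.0133 over the 8 members, Spearman rho = 0.72 with permutation p = 0.00058, r = 0.56 without the 2 most distant mice). The part of that share in the differences by group was not tested.

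The group means of Ahsg and Inhbe lay within 1 SD of each other. Ahsg had means of 8139 ± 644 CPM (SD, n = 6) in FED-CTRL, 7573 ± 1230 CPM in FED-HFD, 7764 ± 1514 CPM in CR20-CTRL and 8339 ± 789 CPM in CR20-HFD. The interval of its averaged diet effect on the log2 scale ran from -0.21 to 0.16. Inhbe had 74.8 ± 12.5, 74.9 ± 22.7, 68.9 ± 20.0 and 76.8 ± 25.4 CPM in the same order, and an interval from -0.29 to 0.38 (both intervals from the standard error of the fit).

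Angptl4 and Angptl8 varied most among the abundant members. Angptl4 ranged from 79.8 to 114 CPM (median 88.5) in FED-CTRL and from 124 to 230 CPM (median 159) in FED-HFD livers. These 2 groups did not overlap, as for 0.791% of all genes tested, though after normalization the gap was small (log2 CPM of 6.879 in the highest FED-CTRL and 6.885 in the lowest FED-HFD mouse). The log2FC was 0.92 (standard error 0.42, 1.89-fold), with an unadjusted edgeR p of 0.0404, an adjusted p of 0.710 and an exact permutation p of 0.00216, the smallest that 6 against 6 mice allow. The spread was far wider in offspring of CR20 dams, from 40.7 to 328 CPM (median 99.3) in CR20-CTRL and from 46.8 to 314 CPM (median 179) in CR20-HFD, whose groups overlapped over most of their range (log2FC 0.14, standard error 0.42, edgeR adjusted p = 0.923). By range of animal numbers (under 20, 20 to 39, 40 and above), mean log2 CPM was 8.05, 6.57 and 6.08 in CR20-CTRL. It was 7.99, 7.41 and 5.72 in CR20-HFD, 6.50, 6.88 and 6.34 in FED-CTRL and 7.33, 7.26 and 7.77 in FED-HFD. Each range held 1 to 4 mice of a group, and its meaning is not stated. The part of these ranges in the spread was not tested. With the 12 FED livers fitted alone, Angptl4 was called with an edgeR adjusted p of 0.0535. The difference between the 2 diet effects was -0.77, with a standard error of 0.60 and an edgeR adjusted p of 0.999.

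Angptl8 had lower medians on HFD. Its liver level was 44.4 to 522 CPM (median 193) in FED-CTRL and 8.25 to 177 CPM (median 52.9) in FED-HFD, with overlap between the groups. The log2FC was -1.65 (standard error 0.61, 0.318-fold), with an unadjusted edgeR p of 0.0125, an adjusted p of 0.541 and an exact permutation p of 0.0714. In offspring of CR20 dams it ranged from 99.0 to 283 CPM (median 127) on CTRL and from 23.3 to 176 CPM (median 117) on HFD (log2FC -0.55, standard error 0.60, edgeR adjusted p = 0.756). Averaged over dams the log2FC of Angptl8 was -1.10 (standard error 0.43, edgeR adjusted p = 0.235).

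The hormones Fgf21 and Gdf15 were low in liver. Fgf21 was read with 8 to 140 counts per library, at 1.55 to 7.32 CPM (median 1.997) in FED-CTRL, 0.813 to 4.52 CPM (median 2.70) in FED-HFD, 0.953 to 4.12 CPM (median 2.23) in CR20-CTRL and 1.61 to 4.13 CPM (median 2.11) in CR20-HFD. All 4 groups overlapped, and the averaged diet effect of Fgf21 was -0.08 on the log2 scale with an interval from -0.67 to 0.51. Gdf15 had 1.00 to 3.03 CPM (median 1.71) in FED-CTRL, 1.13 to 3.28 CPM (median 1.64) in FED-HFD, 0.431 to 2.75 CPM (median 1.57) in CR20-CTRL and 0.307 to 10.5 CPM (median 2.41) in CR20-HFD. The CR20-HFD group held both the lowest and the highest library, and its log2FC against CR20-CTRL was 1.01 (standard error 0.52), with an edgeR adjusted p of 0.541 and an exact permutation p of 0.468. The standard errors of the diet effects in FED and CR20 offspring were 0.42 and 0.43 for Fgf21 and 0.53 and 0.52 for Gdf15. With these, only large differences were detectable. Angptl4, at a median of 1729 counts per liver library against 34.5 for Fgf21, had standard errors of 0.42 and 0.42.

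**Figure D2:**
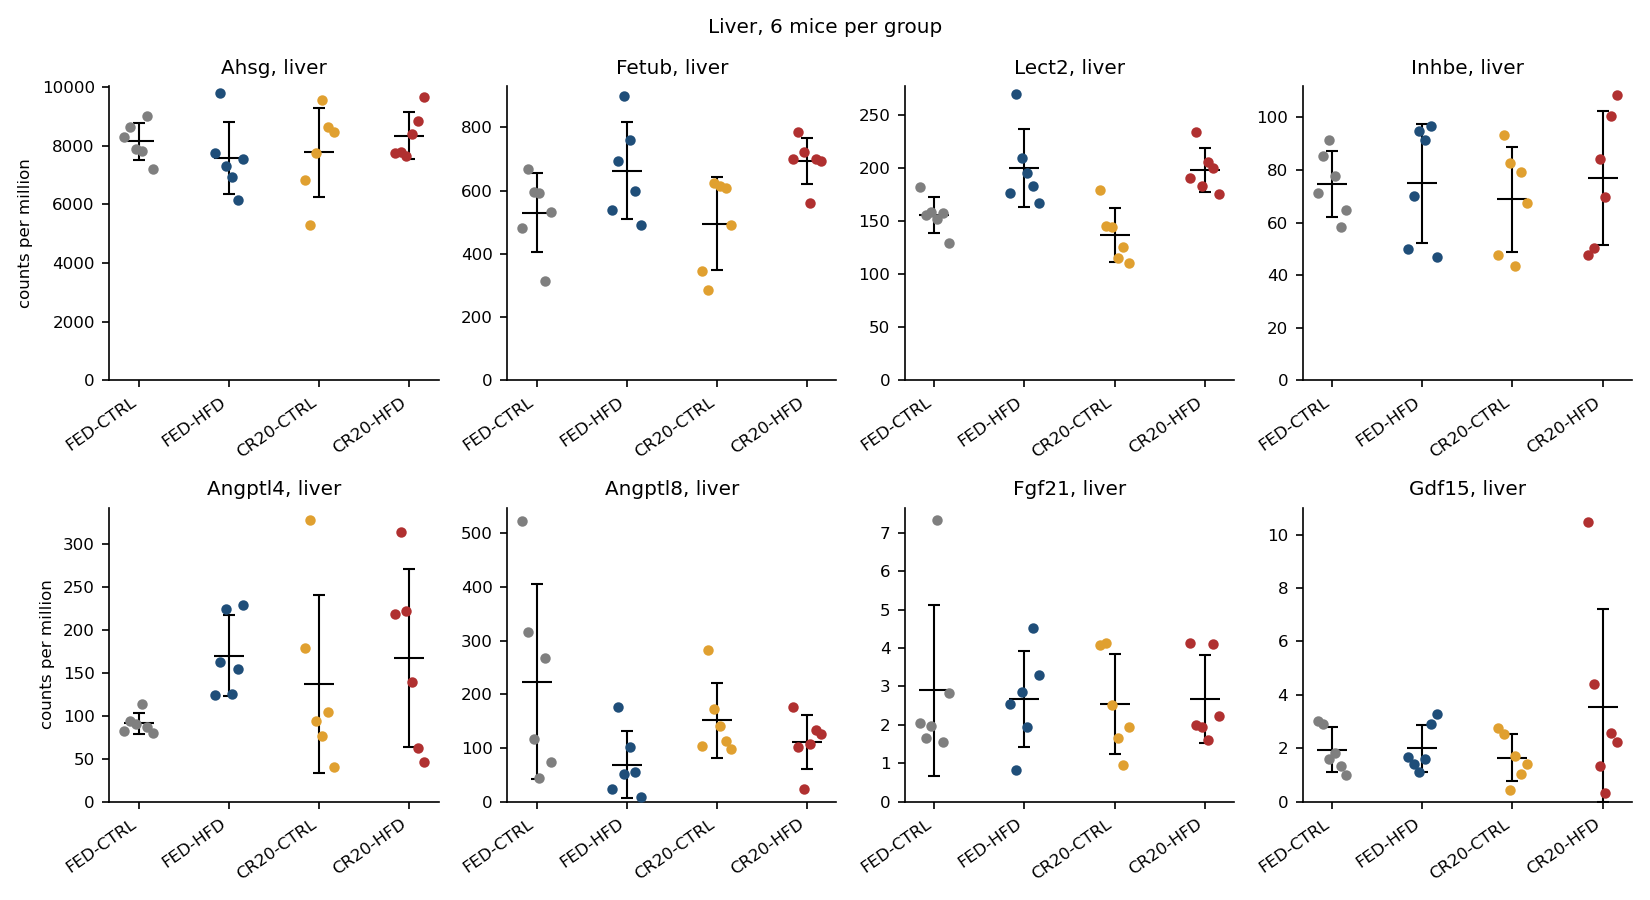
Liver levels of the 8 genes in CPM by group, with 1 point per mouse (6 per group), a bar at the mean and error bars of 1 SD, cut at 0. The FED-CTRL and FED-HFD points of Angptl4 do not overlap, while its CR20 groups span 40.7 to 328 CPM, and no panel shows a called difference.

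Lists of other genes from related pathways gave a background for the liver values. Of 14 lipogenic and carbohydrate-responsive genes tested, 10 were lower on HFD averaged over dams (edgeR adjusted p under 0.055), with a median log2FC of -1.41 over the list and -0.01 over all genes tested. Scd1, a fatty acid desaturase, had a log2FC of -4.66 (standard error 0.38), the triglyceride lipase-like gene Pnpla3 -4.43 (0.66), Elovl6 -2.24 (0.34) and malic enzyme Me1 -1.75 (0.17). Scd1 was also lower within FED offspring (-3.93) and within CR20 offspring (-5.39). Of 14 PPAR alpha targets, the group to which Angptl4 and Fgf21 belong, 0 were called (2 at an unadjusted p under 0.05), 11 lay above 0, and the list's median was 0.19. In the integrated stress response list, which is known to drive Fgf21 and Gdf15, 0 of 12 genes were called averaged over dams by edgeR's quasi-likelihood test (4 at an unadjusted p under 0.05). Other hepatokines and activin family genes gave 0 calls of 17 (6 at an unadjusted p under 0.05), receptors and binding partners 0 of 15 (2), clock genes 0 of 11 (2) and the glucocorticoid response 0 of 8 (2). In the same averaged comparison at least 955 of all 13787 genes tested had an unadjusted p under 0.05.

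In eWAT, Angptl4 again had higher and Angptl8 lower medians on HFD, and neither passed the main test. Angptl4 had 411 to 799 CPM (median 531) in FED-CTRL and 678 to 1076 CPM (median 961) in FED-HFD, where 5 of 6 mice lay above every FED-CTRL mouse. Its log2FC was 0.68 (standard error 0.25, edgeR adjusted p = 0.0801, exact permutation p = 0.00649). For CR20 offspring Angptl4 had 258 to 913 CPM (median 589) on CTRL and 466 to 947 CPM (median 916) on HFD (log2FC 0.56, standard error 0.25, edgeR adjusted p = 0.820). Angptl8 had 26.9 to 83.7 CPM (median 37.2) in FED-CTRL and 4.17 to 32.4 CPM (median 11.0) in FED-HFD, with 1 HFD library above the lowest CTRL library (log2FC -1.76, standard error 0.64, edgeR adjusted p = 0.0788, exact permutation p = 0.00433). In CR20 offspring it ranged from 5.18 to 161 CPM (median 41.5) on CTRL and from 8.49 to 43.6 CPM (median 22.1) on HFD (log2FC -1.28, standard error 0.62, edgeR adjusted p = 0.832), and the lowest value was that of mouse 5.

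Both genes sat near the threshold in eWAT. In FED offspring, limma's voom with quality weights called Angptl4 (log2FC 0.81, adjusted p = 0.00547) and Angptl8 (-1.74, adjusted p = 0.0242), as did DESeq2 (adjusted p = 0.0427 and 0.0461) and edgeR on the 12 FED libraries alone (adjusted p = 0.0324 and 0.0300). Leaving out CR20-CTRL mouse 5, 33 or 48 brought Angptl4 under the threshold (edgeR adjusted p = 0.0478, 0.0529 and 0.0535), as leaving out mouse 5 or FED-HFD mouse 10 did Angptl8 (-1.76 and -2.19, edgeR adjusted p = 0.0368 and 0.0348). Averaged over dams, edgeR gave Angptl4 a log2FC of 0.62 (standard error 0.17, adjusted p = 0.0997) and Angptl8 -1.52 (standard error 0.44, adjusted p = 0.107), with 0 of 6 members called, 2 at an unadjusted p under 0.05 and 0.175% of all genes called. Without the 3 libraries rich in hepatocyte transcripts, Angptl8 was called in FED offspring (-2.40, edgeR adjusted p = 0.0169) and averaged over dams (-1.96, edgeR adjusted p = 0.0341). Without mouse 5 alone the averaged value was -1.64 (edgeR adjusted p = 0.0477). Without mouse 23, the lowest library of Angptl8, the value in FED offspring was -1.56 (edgeR adjusted p = 0.196).

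**Figure D3:**
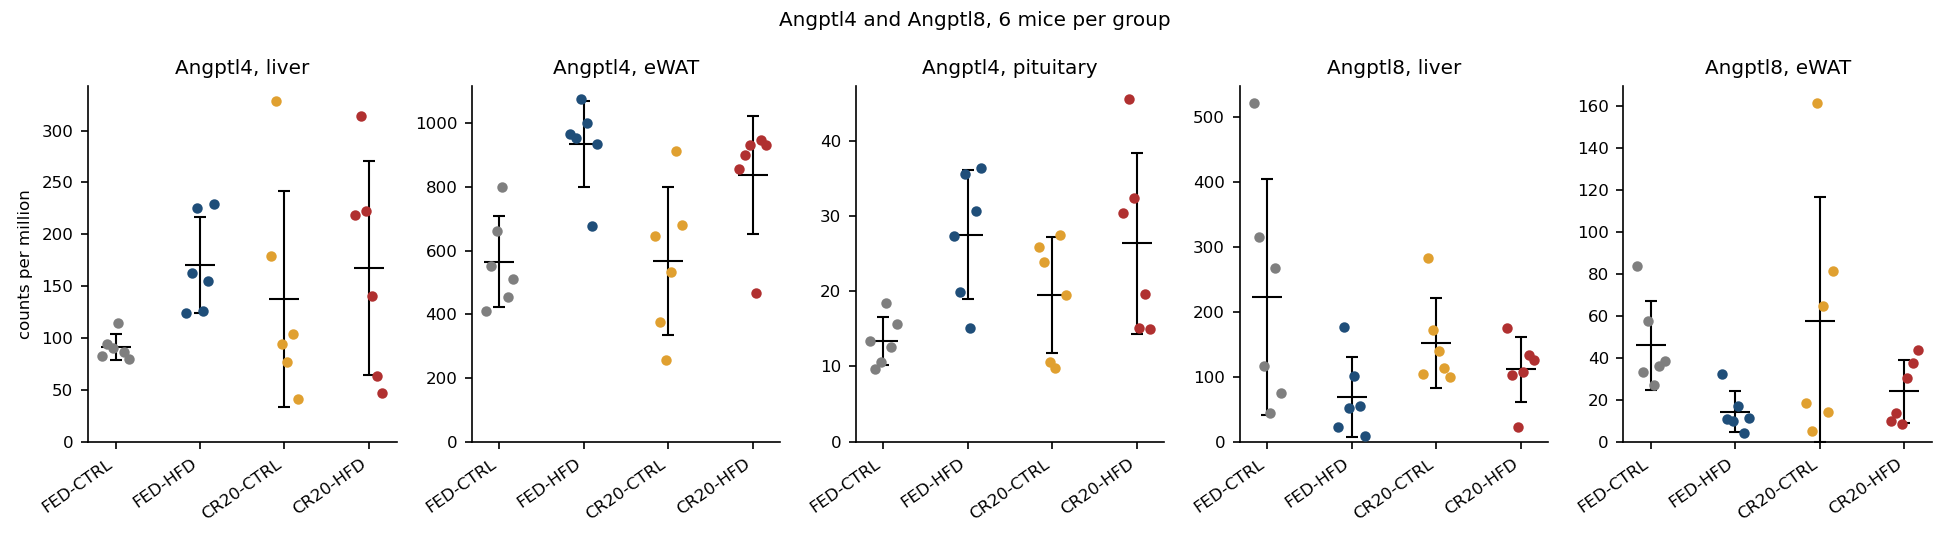
Angptl4 in liver, eWAT and pituitary and Angptl8 in liver and eWAT, in CPM by group, with 1 point per mouse (6 per group), a bar at the mean and error bars of 1 SD, cut at 0. In FED offspring the HFD median is higher for Angptl4 in all 3 tissues (159, 961 and 29.0 CPM against 88.5, 531 and 13.0) and lower for Angptl8 in both, and Angptl4 in liver separates the FED groups while its CR20 groups overlap.

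Gdf15, Fetub and Ahsg were called higher in FED-HFD than in FED-CTRL eWAT, 3 of the 6 members tested there, against 6.42% of all 15964 genes called and higher. All 3 were low. Fetub had at most 8 counts in a FED-CTRL library and passed the filter on low counts only with its FED-HFD libraries included. The count of 3 of 6 therefore depends in part on the level of Fetub in FED-HFD. Gdf15 had 0.195 to 0.529 CPM (median 0.299) in FED-CTRL and 0.355 to 5.61 CPM (median 0.799) in FED-HFD, where mouse 23, the mouse with the highest macrophage sum, held the top value and the groups overlapped. Its log2FC was 2.13 (standard error 0.64, edgeR adjusted p = 0.0353, exact permutation p = 0.0216). Without mouse 23 the log2FC of Gdf15 was 1.08 (edgeR adjusted p = 0.297). Leaving out FED-CTRL mouse 14, 15, 16 or 42 also ended its call, with log2FC of 2.02 to 2.16 and adjusted p of 0.0679 to 0.0773. In the same comparison 8 of 10 macrophage markers were called higher, among them Cd68 (2.11), Adgre1 (1.79), Lgals3 (2.45) and Trem2 (2.66). The part of macrophage RNA in Gdf15 was not tested, and in bulk tissue more cells of a type and more RNA per cell cannot be told apart.

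Fetub had 0.106 to 0.36 CPM (median 0.313) in FED-CTRL eWAT and 0.147 to 4.90 CPM (median 1.19) in FED-HFD. Its log2FC was 2.44 (standard error 0.66, edgeR adjusted p = 0.0195, exact permutation p = 0.0325). Ahsg had 0.265 to 1.27 CPM (median 0.371) in FED-CTRL and 0.812 to 59.1 CPM (median 1.72) in FED-HFD, with a log2FC of 4.51 (standard error 1.27, edgeR adjusted p = 0.0252, exact permutation p = 0.00649). The top library of both genes was that of mouse 10, one of the 3 rich in hepatocyte transcripts. Among CR20 offspring, Ahsg had 0.508 to 49.6 CPM (median 0.693) on CTRL, with mouse 5 at the top, and 0.156 to 1.02 CPM (median 0.394) on HFD.

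Transcripts of most of the liver genes followed were high in these libraries together. Albumin (Alb) had 505 CPM in FED-HFD mouse 10, 482 CPM in CR20-CTRL mouse 5 and 103 CPM in FED-HFD mouse 13, against 2.38 to 39.1 CPM in the other 21. Of the 10 hepatocyte markers, 7 were higher in all 3 libraries than in the other 21, and 5 were at 0 in at least 1 library. As a share of the liver median, these 7 markers stood at 0.63% to 1.37% in mouse 10, 0.447% to 0.761% in mouse 5 and 0.105% to 0.19% in mouse 13. The markers outside these 7 were Serpina1e, Cyp2e1 and Tat. In mice 10, 5 and 13, Serpina1e stood at 5.60%, 3.47% and 7.15%, against 4.52% for the median of the other 21. Cyp2e1 stood at 0.956%, 2.12% and 0.294% against 1.80%, and Tat at 1.41%, 0.570% and 0.173% against 0.0728%. Ahsg stood at 0.758%, 0.636% and 0.136% of its liver median in the same mice, Lect2 at 0.943%, 0.588% and 0.147%, Fetub at 0.813%, 0.401% and 0.279% and Inhbe at 0.892%, 0.579% and 0.521%. Fetub did not set mouse 13 apart. It had 1.68 CPM there and 1.74 CPM in FED-HFD mouse 23, whose Alb was the lowest at 2.38 CPM.

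Without these 3 libraries, the log2FC of Ahsg in FED-HFD vs FED-CTRL eWAT was 1.30 (edgeR adjusted p = 0.0555) and that of Fetub 1.40 (edgeR adjusted p = 0.0848), and neither was called. Gdf15 remained called with 2.45 (edgeR adjusted p = 0.0171). With all libraries, voom with quality weights (limma) gave Gdf15 1.28 (adjusted p = 0.0480), Ahsg 2.86 (adjusted p = 0.0221) and Fetub 1.39 (adjusted p = 0.107). Without mouse 10 alone, Ahsg had 2.47 (edgeR adjusted p = 0.134) and Fetub 1.67 (edgeR adjusted p = 0.0660). Leaving out FED-CTRL mouse 16, 41 or 42 also took Ahsg just past the threshold, with adjusted p of 0.0558 to 0.0586.

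Between the HFD groups, Ahsg and Fetub were called with lower levels in the CR20-HFD than the FED-HFD eWAT, 2 of 6 members against 7.29% of all genes called and lower. This comparison shares the FED-HFD mice with the one above. Fetub again entered the count of members tested through its FED-HFD libraries, by the filter on low counts. The log2FC of Ahsg was -4.51 (standard error 1.28, edgeR adjusted p = 0.0205, exact permutation p = 0.00649) and that of Fetub -1.99 (standard error 0.64, edgeR adjusted p = 0.0392, exact permutation p = 0.0779). Without mouse 10 they were -2.48 (edgeR adjusted p = 0.119) and -1.22 (edgeR adjusted p = 0.158), and without the 3 libraries -1.30 (edgeR adjusted p = 0.0495, still called) and -0.94 (edgeR adjusted p = 0.223). Fetub also lost its call without FED-HFD mouse 13 or 23 or CR20-HFD mouse 6, 7, 31 or 46, at adjusted p of 0.0619 to 0.0825. Neither was called by voom with quality weights (-2.67 and -0.84, limma adjusted p = 0.0710 and 0.390) or with a covariate for the range of animal numbers (edgeR adjusted p = 0.130 and 0.0956). Gdf15 had -1.04 there (standard error 0.61, edgeR adjusted p = 0.259).

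In the eWAT test of the interaction of dam and diet, 1 of 6 members was called, against 2.42% of all genes. Ahsg had -8.28 (standard error 1.79, edgeR adjusted p = 0.0322). Its highest libraries were those of FED-HFD mice 10 and 13 and CR20-CTRL mouse 5. Without the 3 libraries it was -1.69 (edgeR adjusted p = 0.175), by voom with quality weights -3.44 (limma adjusted p = 0.285) and with the range covariate -5.97 (edgeR adjusted p = 0.0976), each not called, as by voom without weights. Without mouse 5 alone it was -4.89 (edgeR adjusted p = 0.0794), and leaving out FED-CTRL mouse 15, 16, 41 or 42, CR20-CTRL mouse 47 or 49, or CR20-HFD mouse 31 or 32 ended the call as well, at adjusted p of 0.0569 to 0.0703. Fetub had -3.25 (standard error 0.93, edgeR adjusted p = 0.0644), called without CR20-CTRL mouse 48 or FED-HFD mouse 11, 12 or 40 (adjusted p of 0.0375 to 0.0527), and Gdf15 -2.45 (standard error 0.89, edgeR adjusted p = 0.148). Without the 3 libraries these were -1.56 (edgeR adjusted p = 0.291) and -2.30 (edgeR adjusted p = 0.203), and without mouse 23 they were -3.21 (edgeR adjusted p = 0.0947) and -1.37 (edgeR adjusted p = 0.418).

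In the remaining eWAT comparisons edgeR called 0 of 6 members. In CR20-HFD vs CR20-CTRL 0% of all genes were called (2 members at an unadjusted p under 0.05), in CR20-CTRL vs FED-CTRL 0% (2 members), and in CR20 vs FED averaged over diets 3.96% (0 members). DESeq2 called 0, 1 and 0 members in these. By edgeR rank, at least 605 and 1038 of all 15964 genes had an unadjusted p under 0.05 in the first 2. Fgf21 in eWAT was read with 10 to 43 counts per library, and its log2FC for HFD vs CTRL was 0.34 (standard error 0.29, edgeR adjusted p = 0.488) in FED and -0.28 (standard error 0.29, edgeR adjusted p = 0.951) in CR20 offspring. Lect2 and Inhbe were too low in eWAT to be tested, and their highest values there were in mouse 10, with 1.66 and 0.664 CPM.

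**Figure D4:**
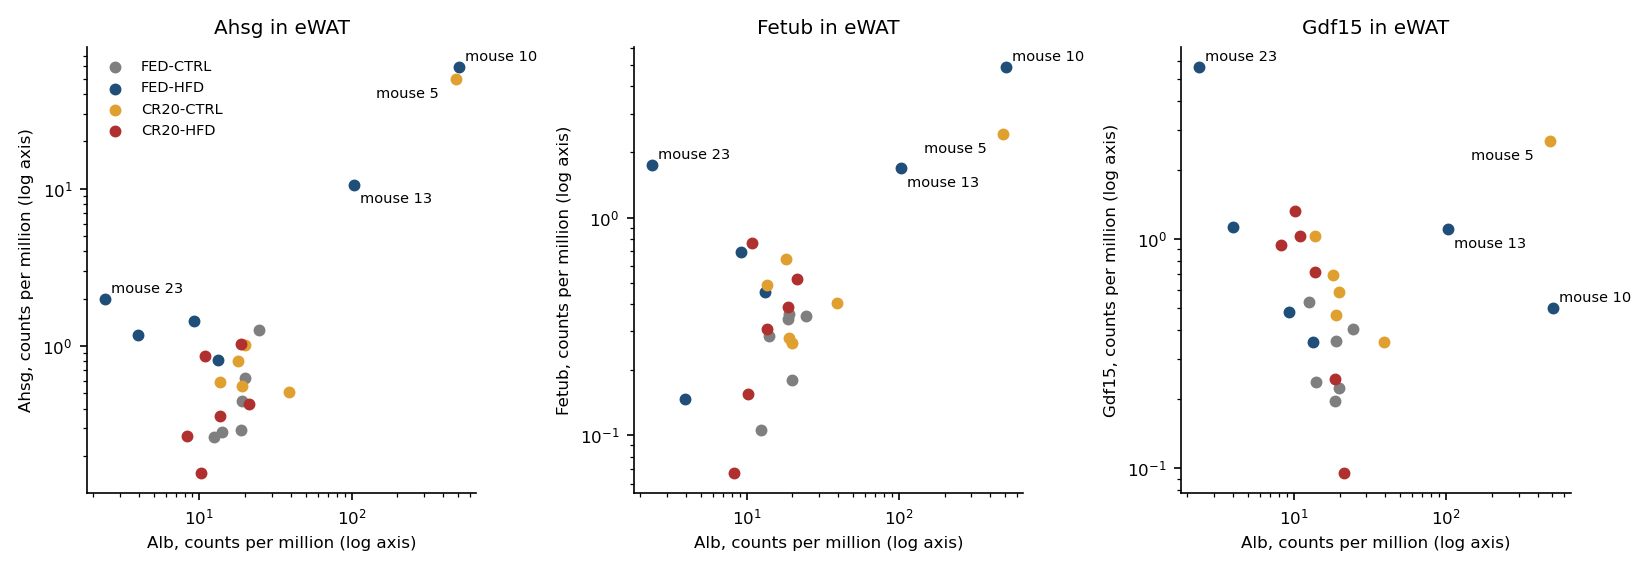
Ahsg, Fetub and Gdf15 against Alb in the 24 eWAT libraries, in CPM on log axes, with 1 point per mouse coloured by group. Mice 5, 10 and 13 stand apart on Alb and hold the highest Ahsg values (49.6, 59.1 and 10.6 CPM), while the highest Gdf15 value (5.61 CPM) is that of mouse 23, which has the lowest Alb.

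Other genes of the same pathways in FED-HFD vs FED-CTRL eWAT were counted by list, against 6.42% of all genes called and higher and 1.58% called and lower. Of 12 PPAR alpha targets, 3 were called higher by edgeR, namely Pdk4 (1.71), the lipid droplet gene Plin2 (1.05) and Cpt1a (0.62), with a median of 0.24 over the list and -0.002 over all genes. Among 12 lipogenic genes 3 were lower, namely Acaca (-1.50), Fasn (-1.31) and Elovl6 (-1.22). The integrated stress response list had 1 of 15 higher, Atf3 (2.25). Of 16 receptors and binding partners 1 was lower, Ret (-0.66), the co-receptor for Gdf15. Other hepatokines and activin family genes gave 2 higher of 17, Gpnmb (3.28) and Hgf (0.69), and 2 lower, Smoc1 (-0.94) and Rbp4 (-1.21). Clock genes gave 1 higher, Npas2 (2.54), and 4 lower, Tef (-0.80), Nr1d1 (-0.81), Dbp (-1.11) and Per3 (-0.73). In CR20-HFD vs FED-HFD, 2.45% of all genes were called and higher and 7.29% called and lower. There 1 of 16 receptors and partners was higher, Gpihbp1 (0.86), which anchors lipoprotein lipase to capillaries. Of 17 other hepatokines 1 was higher, Smoc1 (1.18), and 2 lower, Gpnmb (-3.83) and Hgf (-0.92). The stress response list had 1 of 15 higher, Asns (0.74), and 2 lower, Atf3 (-2.17) and Mthfd2 (-1.06). Of 12 PPAR alpha targets 2 were lower, Plin2 (-1.10) and Pdk4 (-0.77), while 0 of 12 lipogenic, 0 of 12 clock and 0 of 8 glucocorticoid response genes were called by edgeR (3, 2 and 1 at an unadjusted p under 0.05), and 9 of 10 macrophage markers were lower.

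In the pituitary, where 3 members were tested, Angptl4 was the member with an unadjusted p under 0.05 for diet in FED offspring. It had 9.71 to 18.4 CPM (median 13.0) in FED-CTRL and 15.1 to 36.4 CPM (median 29.0) in FED-HFD, with 1 HFD library inside the CTRL range in CPM and 2 on the normalized log2 scale. The log2FC was 1.04 (standard error 0.26, 2.06-fold), with an unadjusted edgeR p of 0.000414, an adjusted p of 0.184 and an exact permutation p of 0.00649. The pituitary of FED-HFD mouse 10 had an adipocyte marker sum of 189 CPM, against at most 38.1 CPM in the other libraries. Its log2 CPM of Angptl4 was 4.83, against a group median of 4.82. The part of adipose RNA in this library was not tested. In CR20 offspring Angptl4 ranged from 9.77 to 27.5 CPM (median 21.7) on CTRL and from 15.0 to 45.5 CPM (median 25.0) on HFD (log2FC 0.41, standard error 0.26, edgeR adjusted p = 0.749). Averaged over dams it was 0.73 (standard error 0.18, edgeR adjusted p = 0.195). With no filter on low counts Angptl4 was called in FED offspring (edgeR adjusted p = 0.00884) and averaged over dams (0.0112). That call depended on this setting, and limma's voom with quality weights and DESeq2 did not make it. The share of all genes called with no filter is not given here.

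Fetub was the steadiest member of the pituitary. Its group means lay between 61.1 and 62.3 CPM, its 24 libraries between 50.1 and 74.3 CPM, and none of its log2FC was beyond 0.02 in size in any comparison. Gdf15 was read with 1 to 22 counts per library and had a log2FC of -0.97 in CR20-CTRL vs FED-CTRL, with a standard error of 0.47, an edgeR adjusted p of 0.279 and an exact permutation p of 0.0281. By edgeR, 0 of 3 members and 0% of all 16657 genes were called in each pituitary comparison but 1, HFD vs CTRL averaged over dams, with 0 of 3 members and 0.006% of all genes. At an unadjusted p under 0.05 there was 1 member for diet in FED offspring and 1 averaged over dams, 2 in CR20-CTRL vs FED-CTRL and 0 in the other comparisons. In CR20-CTRL vs FED-CTRL at least 2775 of the 16657 genes had such a p by edgeR rank. Limma's voom with quality weights and DESeq2 called 0 members in each pituitary comparison.

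The partners of these factors had their own tissue pattern. In CPM, Klb averaged 18.0 in liver, 66.7 in eWAT and 0.114 in the pituitary, and Fgfr1 2.81, 251.1 and 70.0. Gfral, which is known from the hindbrain, had 0 counts in all 72 libraries, which allows up to 0.305 CPM in the shallowest of them, and Ret averaged 68.3 CPM in eWAT. Lipoprotein lipase (Lpl) averaged 9664 CPM in eWAT, where Angptl4 was highest, against 11.3 CPM in liver and 52.5 CPM in the pituitary. Acvr1c, the receptor of activin E, averaged 85.2 CPM in eWAT and 0.0824 CPM in liver, where its ligand gene Inhbe was read. These are means over 24 libraries, given as levels with no test.

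Members were also compared with each other across mice, after subtraction of group means. Within liver, 28 pairs were computed and none was past an adjusted permutation p of 0.05. The closest was Angptl8 with Lect2 (Pearson r = 0.62, adjusted permutation p = 0.0588, Spearman rho = 0.62, r = 0.56 without the 2 mice farthest from the median). Fgf21 and Ahsg had r = -0.59 (adjusted permutation p = 0.0812, rho = -0.61, r = -0.57 without 2 mice). Of 108 pairs that involve eWAT or the pituitary, the 1 past the threshold was Fetub with Ahsg in eWAT (r = 0.79, permutation p = 0.00023, adjusted 0.0248, rho = 0.71, r = 0.73 without 2 mice), both highest in mouse 10. Without the 3 libraries rich in hepatocyte transcripts r was 0.49 (21 mice, unadjusted permutation p = 0.0407, rho = 0.52). Within ranges of animal numbers its r was 0.86 (11 mice under 20) and 0.81 (8 mice of 40 and above). Liver Angptl4 went against eWAT Angptl8 (r = -0.73, permutation p = 0.00141, adjusted 0.0761, rho = -0.71 with adjusted permutation p = 0.0513, r = -0.60 without mice 5 and 49). For these genes r was -0.90 over the 11 mice numbered under 20 and -0.81 over the 8 numbered 40 and above. Liver and pituitary Angptl4 had r = 0.58 (permutation p = 0.0179, adjusted 0.246), and 0.74 and 0.55 within those ranges.

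**Figure D5:**
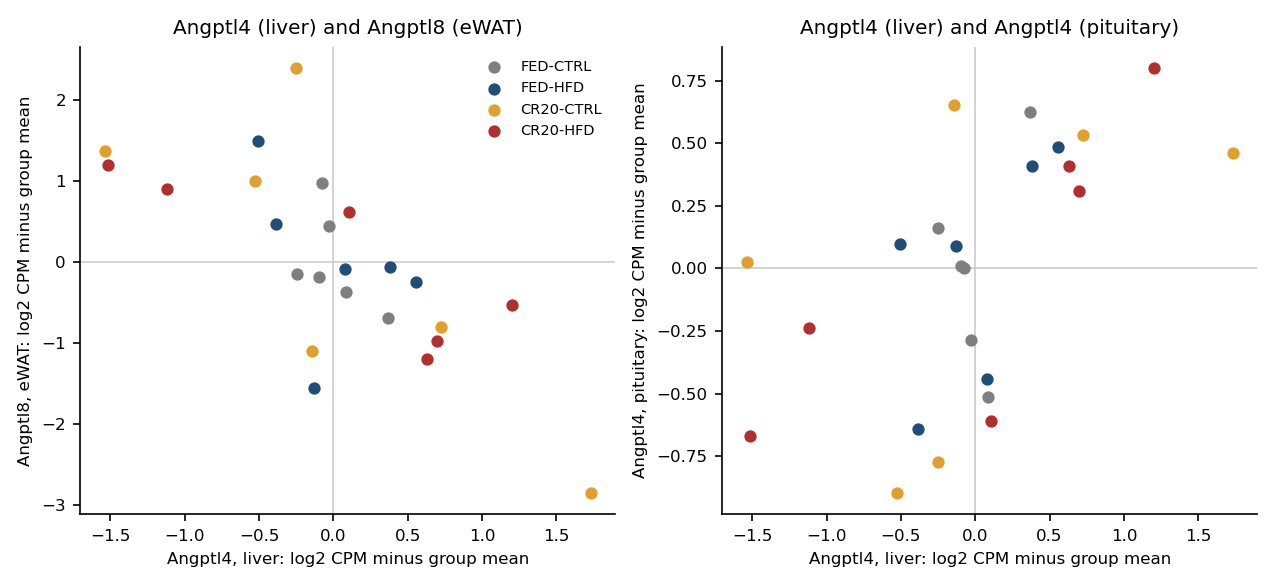
Log2 CPM minus the group mean in 24 mice, for liver Angptl4 against eWAT Angptl8 (left) and against pituitary Angptl4 (right), with 1 point per mouse coloured by group. The left points fall (r = -0.73) and the right points rise (r = 0.58), and neither correlation passed the adjusted threshold.

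The genes whose level over the 24 libraries of a member's leading tissue was most like it are given as a description. For Angptl4 in eWAT they were Pdk4 (r = 0.82), Ffar2 (0.82) and Hmgcs1 (0.81). For liver Lect2 they were Gpx1 (0.93), Gm3787 (0.87) and Ndufs3 (0.87), and for liver Fetub they were Tmt1b (0.96), Ptms (0.93) and Fah (0.93). Liver Angptl8 was closest to Myl9 (0.80), Klf10 (0.80) and Gm45548 (0.77). Fgf21 was closest to Gsr (0.73), Stom (0.72) and Sgk2 (0.66), and Gdf15 to Scn8a (0.74), Dcaf4 (0.67) and Tcp11l2 (0.66). Ahsg was closest to Uspl1 (0.73), Habp2 (0.70) and Zc3h15 (0.70), and Inhbe to Tfeb (0.71), Gna12 (0.69) and Aqp9 (0.68). All these r were taken over the same libraries, which share depth and the group differences.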

How the data were processed

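The authors trimmed the reads with Trimmomatic, aligned them with STAR to GRCm39, counted them per Ensembl gene (release 104) with featureCounts of Subread, and deposited the counts as whole numbers without normalization. Versions and the strand setting are not given in the sources used here. Of 55416 genes, 54749 matched a symbol by identifier.

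The counts of each tissue (24 libraries, 4 group means) were fitted with edgeR 4.0.16 in R 4.3.3 (filterByExpr, TMM, glmQLFit and glmQLFTest, two-sided, Benjamini-Hochberg over all genes tested). Thresholds were those of the methods, an adjusted p under 0.055 and an absolute log2FC of at least 0.58. The methods name limma's voom with quality weights, which was run as an alternative (limma 3.58.1), as was DESeq2 1.42.0. Tissues were compared after TMM over the 72 libraries. CPM and RPKM use library totals, and RPKM the canonical transcript length. Log2 CPM has a prior count of 2. Single values were tested by exact permutation over 924 splits, and correlations and tissue differences with 100000 resamples (1e+05). The scripts were tested on simulated data.

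The 8 members, the gene lists and the tests were chosen with earlier results of these data known. Named genes were all members, up to 4 called genes per list with the smallest p where a member is described (the 5 clock genes are all given, the fifth named after its value was seen), and the 3 genes most like each member. Libraries were grouped by the labels, and 0 columns had no sample. Markers of other cell types were also summed in eWAT, where endothelial markers ranged from 254 to 1152 CPM and stellate and fibroblast markers from 2655 to 10848 CPM. Epididymis and testis markers ranged from 0 to 132 CPM, the last in CR20-CTRL mouse 4. The next sums were 62.3 CPM in another CR20-CTRL mouse and 26.8 CPM in CR20-HFD mouse 6. The highest were 0.212 CPM in FED-CTRL and 0.0535 CPM in FED-HFD. The part of such RNA in the levels of the members was not tested.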

Additional observations from a re-analysis of the deposited data

Results flagged for a closer look

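Of single values, 5 lay far from the other 5 mice of their group by Dixon's criterion, of 68 groups looked at, where chance flags about 1 in 20. Given as log2 CPM, Fgf21 in the liver of FED-CTRL mouse 24 was high at 2.94, and Angptl8 in the liver of CR20-HFD mouse 31 was low at 4.42. In eWAT, Angptl4 was low in FED-HFD mouse 23 at 9.29, the mouse with the lowest adipocyte and the highest macrophage sum, and in CR20-HFD mouse 32 at 8.87. Ahsg in the eWAT of CR20-CTRL mouse 5 was high at 5.39, in 1 of the 3 libraries rich in hepatocyte transcripts.

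The effect of diet on Ahsg in eWAT differed between the offspring of CR20 and FED dams by -8.28 on the log2 scale (edgeR adjusted p = 0.0322 for the interaction), and by -1.69 (edgeR adjusted p = 0.175) without those 3 libraries.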

How the results depend on the processing

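Over 119 results of a member in a comparison, 6 were called. Under the alternatives these 6 gave 210 values, 0 of the other sign and 162 still called. The uncalled results gave 3922, of which 243 had the other sign, 28 were called and 0 were called with the other sign. Counts of members called moved as follows. In FED-HFD vs FED-CTRL liver 0 became 1 with only the groups compared, and in CR20-HFD vs CR20-CTRL liver 0 became 1 by limma's voom with quality weights. In FED-HFD vs FED-CTRL eWAT 3 became 0 by voom without quality weights, 5 by DESeq2, 1 with a covariate for the animal-number range, 4 by voom with quality weights (Gdf15, Ahsg, Angptl4 and Angptl8) and 2 without the 3 libraries rich in hepatocyte transcripts (Gdf15 and Angptl8), and was 1 to 5 leaving out 1 mouse. In CR20-CTRL vs FED-CTRL eWAT 0 became 1 by DESeq2. In CR20-HFD vs FED-HFD eWAT 2 became 0 by voom with or without quality weights and with the range covariate. There 2 became 1 with no filter and without the 3 libraries rich in hepatocyte transcripts (0 to 2 leaving out 1 mouse). The count was also 1 with over 1 CPM in 6 libraries and with only the groups compared. Fetub lay over 1 CPM in fewer than 6 eWAT libraries and was not tested under the former. It had 34 alternative values in this comparison against 36 for Ahsg, so a count of 1 need not be a lost call. In FED-HFD vs FED-CTRL eWAT, Fetub and Gdf15 had 34 and 35 values against 36 for Ahsg, so neither was tested under every alternative. The eWAT interaction went from 1 to 0 by voom with or without quality weights, with the range covariate and without the 3 libraries, and to 2 by DESeq2 (0 to 2 leaving out 1 mouse). Averaged over dams in eWAT, 0 became 2 by voom with quality weights and by DESeq2 and 1 without the 3 libraries (0 to 1 leaving out 1 mouse). In the pituitary 0 became 1 with no filter in FED offspring and averaged over dams. The share of all genes called under each alternative is not given here, so these counts are not set against it. Apart from Fetub under the filter of over 1 CPM, the cause of these moves was not tested. Leaving out the 3 libraries (also for Fetub with Ahsg), and the correlations outside liver, were chosen after seeing the data.

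Values of the other sign among named results were uncalled. Angptl4 in liver, CR20-HFD vs CR20-CTRL, had -0.05 without CR20-CTRL mouse 49 and -0.14 without CR20-HFD mouse 7, the lowest of -0.14 to 0.69 over the mice left out. Gdf15 in eWAT, in the same comparison, had 0.14 without CR20-CTRL mouse 5, the highest of -0.56 to 0.14, and 0.15 without the 3 libraries. Tissue differences kept their direction and their side of the threshold without the TMM factor and without pairing. Within ranges of animal numbers (under 20, 20 to 39, 40 and above, whose meaning is not stated), the Angptl4 difference of FED-HFD vs FED-CTRL was 0.82, 0.38 and 1.43 in liver and 0.87, -0.35 and 0.90 in eWAT, the middle range with 1 mouse against 1, and that of Angptl8 in eWAT -1.84, -2.77 and -1.79.

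No paired analysis was possible because the groups of a tissue hold different mice and share no animal number. Fgf21 and Gdf15 in each tissue and Fetub and Ahsg in eWAT were read with few counts, so counting error adds to their spread between mice.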

Other observations

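Gdf15 in liver and in eWAT of the same mice had r = 0.55 over 24 mice after subtraction of group means (adjusted permutation p = 0.218, over 108 pairs). Without mice 6 and 32 its r was 0.41. Within ranges of animal numbers r was 0.52 (11 mice under 20) and -0.43 (8 mice of 40 and above). The summed adipocyte markers in the pituitary were 189 CPM in FED-HFD mouse 10, against at most 38.1 CPM in the other 23 libraries.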
